A study of Mus musculus with 2 samples.

Results

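The interferon-inducible GTPases described here are 10 mouse genes of 2 families, the immunity-related GTPases Iigp1, Irgm1, Irgm2, Igtp and Tgtp1 (IRG family) and the guanylate-binding proteins Gbp2, Gbp3, Gbp4, Gbp6 and Gbp9 (GBP family). They were found among the non-control spots of 2 two-colour Agilent arrays by gene name, older names included, and checked against the RefSeq accession of each probe. They are 10 of 27597 genes on the array. All had a probe, 14 in all among 41174 distinct probes, and all 14 passed the filter on dim probes. The genes were chosen by family with their knock-out over wild-type ratios on these arrays known, Iigp1 being among the largest. The ratios of the 10 genes are therefore given as a description, with no test.

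The arrays compared RNA of B cells from the peripheral lymph nodes of mice with a targeted Ccr7 allele (strain B6.129P2(C)-Ccr7tm1Rfor/J, Ccr7 knock-out) with RNA of the same cells from wild-type C57BL/6J mice. Ccr7 encodes a chemokine receptor that guides lymphocytes into and within lymph nodes. The cells were sorted by flow cytometry and not cultured, their RNA was amplified before labelling, and the labels used here give neither age nor sex. There were 12 sorted samples, and RNA of 3 was combined in each pool, which gave 2 pools per genotype. Array 1 held a knock-out pool in Cy5 and a wild-type pool in Cy3, and array 2 held the other pools with the dyes swapped. Each array is a replicate (n = 2), and the spread among the animals behind a pool was not measured. In bulk RNA, a change in the share of a cell type and a change in RNA per cell cannot be told apart.

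IRG and GBP proteins are large GTPases of cell-autonomous immunity. Interferon-gamma induces both families through transcription factors that include Irf1, and type I interferon induces many of them as well. In mouse cells, GKS-class IRG proteins such as Iigp1 and Tgtp1 load onto the vacuoles of intracellular pathogens, and GMS-class IRG proteins (Irgm1, Irgm2 and Igtp) sit on the cell's own membranes and keep GKS proteins inactive there. GBP proteins bind the same vacuoles and the surface of cytosolic bacteria, and promote inflammasome activation.

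Several IRG genes had a shared arrangement of motifs just before the start of transcription, which is shown because the genes lie in 1 family and the motifs are those of interferon induction. The searched motifs were GAAANNGAAA, the core of the interferon-stimulated response element (ISRE) bound by IRF and ISGF3 factors, and TTCNNNGAA, the gamma-activated site (GAS) of interferon-gamma responsive genes. Both strands of the 250 bases before each start site were searched in RefSeq's promoters on GRCm38.p6. Promoters of 6 of the 10 genes were used. Those of Iigp1, Gbp4, Gbp6 and Gbp9 were not used here. The last 100 bases before the start are given 5′ to 3′ on the gene's strand, with ISRE cores and GAS in capitals, for Igtp (chr11:58199456-58199555), Irgm2 (chr11:58214877-58214976), Tgtp1 (chr11:48992247-48992346, minus strand), Irgm1 (chr11:48871421-48871520, minus strand), Gbp2 (chr3:142620563-142620662) and Gbp3 (chr3:142559944-142560043).
Igtp: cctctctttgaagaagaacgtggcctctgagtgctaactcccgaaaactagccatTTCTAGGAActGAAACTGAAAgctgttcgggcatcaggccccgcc
Irgm2: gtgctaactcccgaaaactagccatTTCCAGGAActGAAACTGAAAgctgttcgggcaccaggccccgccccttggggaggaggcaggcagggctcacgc
Tgtp1: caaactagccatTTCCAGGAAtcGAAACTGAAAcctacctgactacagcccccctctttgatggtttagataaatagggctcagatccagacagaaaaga
Irgm1: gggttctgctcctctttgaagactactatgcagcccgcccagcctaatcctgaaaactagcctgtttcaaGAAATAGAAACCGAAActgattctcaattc
Gbp2: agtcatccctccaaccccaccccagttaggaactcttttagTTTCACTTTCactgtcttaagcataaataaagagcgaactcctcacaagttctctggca
Gbp3: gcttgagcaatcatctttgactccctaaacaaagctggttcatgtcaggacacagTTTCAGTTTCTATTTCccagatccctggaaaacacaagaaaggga

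All 6 genes had an ISRE core in this window, against 2.98% of 32851 promoters. A GAS was present in 3 of 6 (Igtp, Irgm2 and Tgtp1), against 7.02%. The genes were chosen as interferon-inducible, so nothing is read from these shares. The shares also set genes with any start site against single promoters. The 3 genes with a GAS share a near-identical block, given below, and are not independent matches. In Gbp2 and Gbp3 the core lies on the opposite strand, and in Irgm1 and Gbp3 the capitals cover 2 overlapping ISRE cores. The second listed start site of Gbp3 had neither motif. Igtp, Irgm2 and Tgtp1 each had a GAS followed by an ISRE core with 2 bases between them, in a block of 21 bases counted from 1 at its 5′ end. From Irgm2 to Igtp the block differed by C4T alone, and from Irgm2 to Tgtp1 by C10T and T11C. A GAS ending at most 10 bases before an ISRE core, a distance chosen after these promoters were seen, was present in 12 of 32851 promoters (0.0365%). Within 2 bases the genes were Igtp, Irgm2, Tgtp1, its near-identical neighbour Tgtp2, and Gm12185. Outside the 10 genes, 5 genes with the pair were tested on the arrays. Gm12185 had a log2 knock-out over wild-type ratio of 0.30 on array 1 and -0.01 on array 2. The IRG gene Gm12250 (Irgb10), with 6 bases between the motifs, had a mean of 0.44. Bst2 had a mean of 0.07, Rab10os 0.04 and Lamp3 -0.19. Whether the pair goes with the ratio was not tested. A match describes letters in this window and is no evidence of binding.

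On the arrays the highest knock-out over wild-type ratios of the 10 genes were in the IRG family. Iigp1 was 3.59-fold higher in knock-out cells, and Igtp, Tgtp1 and Irgm2 were 1.66-fold, 1.62-fold and 1.57-fold higher. Irgm1 was 1.21-fold higher. In the GBP family, Gbp6 was 1.46-fold higher, and the other 4 lay between 1.06-fold and 1.13-fold. Levels below are background-corrected normalised intensities in arbitrary units, which compare a probe between samples but not 1 probe with another. Ratios are log2 of knock-out over wild type, with the SE of the mean over both arrays.

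Iigp1 (Irga6) is a GKS-class IRG protein that oligomerises on the vacuole of Toxoplasma gondii. The probe maps to chromosome 18, bases 60517868 to 60517927 of mm8, the build used in the files. It gave 976 units on array 1 and 462 on array 2 in knock-out cells, against 223 and 157 units in wild-type cells. Both knock-out levels were above both wild-type levels. The arrays gave ratios of 2.13 and 1.56, which average 1.84 ± 0.29 (SE, n = 2). This was the second-highest mean of 17685 genes tested. The probe was well above background in both genotypes on both arrays, and none of its spots had a value scaled up from the scanner's low-gain reading.

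Tgtp1 (Irgb6), the other GKS-class member, was read by a bright and a dim probe. The bright probe (chromosome 11, 48830094 to 48830153 on mm8) gave 19114 and 16202 units in knock-out cells, against 10831 and 10932 units in wild-type cells. The ratio was 0.82 and 0.57, with a mean of 0.69 ± 0.13 (SE, n = 2). The dim probe, from 48829508 to 48829567, gave 373 and 334 units in knock-out cells, against 290 and 248 units in wild-type cells, with a mean ratio of 0.40 ± 0.03 (SE, n = 2). With both probes, neither knock-out level overlapped the wild-type levels. Tgtp2 is a near-identical copy and was not matched to a probe of its own, so its RNA can contribute to both probes.

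The GMS-class genes Igtp (Irgm3) and Irgm2 are neighbours on chromosome 11. Igtp, at 58023620 to 58023679 on mm8, gave 28303 and 24414 units in knock-out cells, against 16796 and 14893 units in wild-type cells. Its ratio was 0.75 and 0.71, with a mean of 0.73 ± 0.02 (SE, n = 2), the closest agreement between arrays among the 5 IRG genes. Irgm2, at 58038757 to 58038816, gave 15291 and 10314 units in knock-out cells, against 9267 and 6928 units in wild-type cells. Its ratio was 0.72 and 0.57, with a mean of 0.65 ± 0.07 (SE, n = 2). Both knock-out levels were above both wild-type levels for each gene. The chromosome 11 members lie at least 40.9 Mb from the Ccr7 probe on mm8.

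Igtp, Irgm2 and the bright Tgtp1 probe had a spot with such a scaled-up value on array 1 and none on array 2. The array 2 ratios of 0.71, 0.57 and 0.57 therefore hold no such spot. The other 7 genes had none on either array.

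Irgm1, the third GMS-class gene, protects lymphocytes and macrophages of mice from interferon-induced damage, and its 3 probes did not give 1 value. The brightest (chromosome 11, 48708990 to 48709049 on mm8) gave 13377 and 13196 units in knock-out cells, against 11447 and 10474 units in wild-type cells, a mean ratio of 0.28 ± 0.05 (SE, n = 2). The next, from 48709340 to 48709399, gave 7931 and 8391 units in knock-out cells, against 5197 and 6228 units in wild-type cells, a mean ratio of 0.52 ± 0.09 (SE, n = 2). Both were higher in knock-out cells on both arrays. The third probe was designed on a cDNA clone and lies 2799 bases from the nearest of the others. It gave 118 and 120 units in knock-out cells, against 141 and 128 units in wild-type cells, with ratios of -0.25 and -0.10. Its levels were near the dim end, where the added offset of 50 units shrinks a ratio most.

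**Figure D1:**
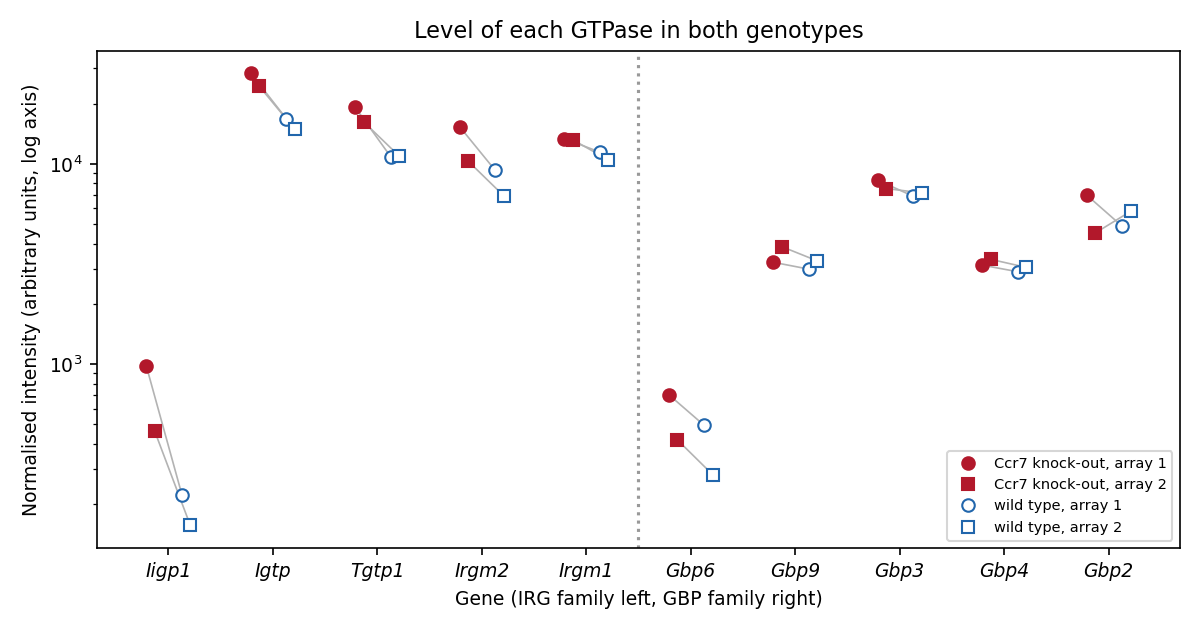
Normalised intensity (arbitrary units, log axis) of the brightest probe of each of the 10 genes in Ccr7 knock-out cells (filled) and wild-type cells (open), with array 1 as circles, array 2 as squares and a line joining the genotypes on an array. Both knock-out levels lie above both wild-type levels for all 5 IRG genes (left of the dotted line) and for Gbp3 and Gbp4. This held for 9.56% of all genes tested. The lines of Gbp2 slope in opposite directions.

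Among the 5 GBP genes, Gbp6 had the highest mean ratio. It is named Mpa2l in the files and was read at chromosome 5, bases 105455567 to 105455626 of mm8. It gave 704 and 420 units in knock-out cells, against 494 and 281 units in wild-type cells. The ratio was 0.51 and 0.58, with a mean of 0.55 ± 0.04 (SE, n = 2). Knock-out was higher on both arrays, but the knock-out level on array 2 was below the wild-type level on array 1. The row that the files call Gbp6 carries the accession of the gene now named Gbp7 and was not counted as a member.

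Gbp2, a GBP that coats pathogen vacuoles in mouse cells, differed in sign between the arrays. Its probe (chromosome 3, 142575141 to 142575200 on mm8) gave 6988 and 4510 units in knock-out cells, against 4880 and 5791 units in wild-type cells. The ratios were 0.52 and -0.36, a mean of 0.08 ± 0.44 (SE, n = 2), so the error is larger than the mean. Gbp3, on the same chromosome (142510494 to 142510553), gave 8301 and 7532 units in knock-out cells, against 6886 and 7166 units in wild-type cells. Its mean ratio was 0.17 ± 0.10 (SE, n = 2).

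Gbp4 and Gbp9 lie in the chromosome 5 cluster with Gbp6, and their ratios were small. Gbp4 (105358363 to 105358422) gave 3121 and 3339 units in knock-out cells, against 2894 and 3043 units in wild-type cells, a mean ratio of 0.12 ± 0.01 (SE, n = 2). The bright Gbp9 probe (105320229 to 105320288), named BC057170 in the files, gave 3227 and 3865 units in knock-out cells, against 2982 and 3280 units in wild-type cells, a mean ratio of 0.18 ± 0.06 (SE, n = 2). Its dim probe, which spans 105334521 to 105334762, gave 216 and 184 units in knock-out cells, against 206 and 195 units in wild-type cells, with ratios of 0.06 and -0.08. The small ratios of Gbp3, Gbp4, Gbp9 and Irgm1 turned negative, at -0.12, -0.17, -0.12 and -0.00, when arrays were centred on their median without an intensity-dependent curve, where the median of all genes was -0.17.

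**Figure D2:**
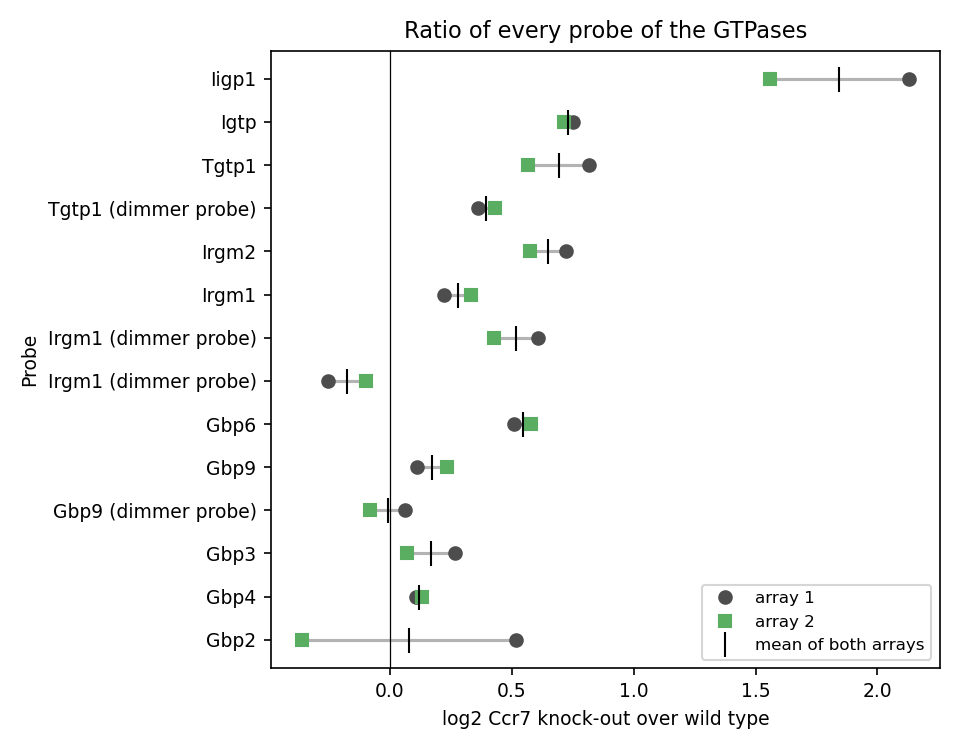
Log2 ratio of Ccr7 knock-out over wild type for all 14 probes of the 10 genes, with array 1 as circles, array 2 as squares and the mean as a tick; a gene's brightest probe comes first. Of these, 11 probes lie above 0 on both arrays, the third Irgm1 probe lies below 0 on both, and Gbp2 and the dim Gbp9 probe differ in sign.

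By brightest probe, 9 of the 10 genes were higher in knock-out cells on both arrays, 0 were lower on both, and Gbp2 went both ways. Over all genes tested, 24.2% were higher on both. With median centring in place of the intensity-dependent curve, 2 of the 10 (Iigp1 and Gbp6) were higher on both, against 11.1% of all genes, and with no normalization 1 (Iigp1) was, against 0.532%. In these settings the median of all genes on array 2 was -0.47 and -0.95, and 7 of the 10 lay above the median of all genes on both arrays. Both knock-out levels were above both wild-type levels for 7 of the 10 genes, against 9.56% of all genes. Iigp1 and Igtp were at least 1.5-fold higher on both arrays, as were 0.254% of all genes, and 0 were that much lower, against 0.368%. Just under that size on array 2 were Irgm2 (1.49-fold) and Tgtp1 (1.48-fold). Gbp6 was under it on both arrays, at 1.42-fold on array 1 and 1.496-fold on array 2. In the limma fit over all genes, Iigp1 alone of the 10 was among the 0.0679% of genes called higher at an adjusted p of 0.05, and 0 of the 10 were among the 0.0339% called lower. Iigp1 was called in 5 of 11 alternative settings and not in the other 6, in which limma called 0 genes. The same contrast chose the genes, so nothing is read from these counts. The median ratio of the 10 genes was 0.51 on array 1 and 0.45 on array 2, beside -0.00 and -0.02 over all genes. By family, the median of the means was 0.69 for the 5 IRG genes, with a range of 0.28 to 1.84, and 0.17 for the 5 GBP genes, with a range of 0.08 to 0.55.

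**Figure D3:**
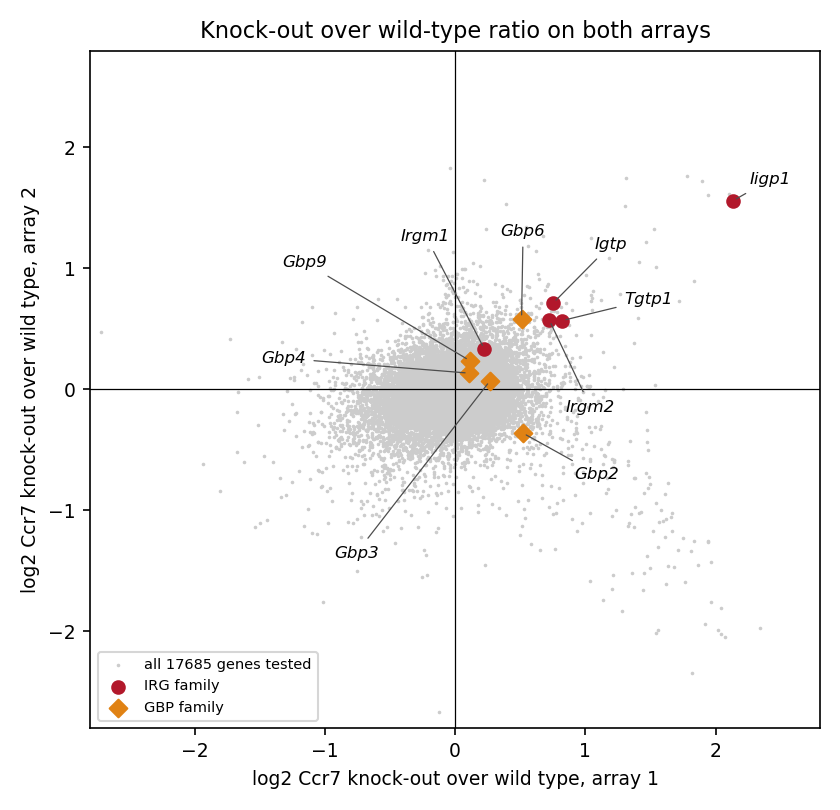
Log2 ratio of Ccr7 knock-out over wild type on array 1 (x axis) and array 2 (y axis) for 17685 genes tested (grey), the 5 IRG genes (circles) and the 5 GBP genes (diamonds); 1 gene lies outside the axes. Iigp1 stands far from the cloud at 2.13 and 1.56, Igtp, Tgtp1, Irgm2 and Gbp6 lie at its upper right edge, and Gbp2 lies below the horizontal line.

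Genes with ratios near those of Iigp1 on both arrays, by Euclidean distance over 2 arrays, were Plekhh3 (distance 0.0641), Jchain (0.287), Ffar2 (0.402) and Serpina3g (0.65). Jchain encodes the joining chain of secreted IgM and IgA, and the Ffar2 product senses short-chain fatty acids.

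Other IRG and GBP genes were listed with the interferon-inducible GTPase genes Gvin1, Mx1 and Mx2 of related classes, and none was called. Of 19 genes listed, 14 had a matched probe and 12 passed the filter on dim probes. Of the 12, 8 were higher in knock-out cells on both arrays and 2 were lower on both, against 24.2% and 30% of all genes. Limma called 0 of them, and at an unadjusted p of 0.05 there were 6 higher and 1 lower, where 3.15% and 5.97% of all genes were. The median of their mean ratios was 0.29.

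The very large GTPase gene Gvin1 gave 41252 and 33411 units in knock-out cells, against 20023 and 24510 units in wild-type cells, by its brightest probe. Its ratio was 0.74 (adjusted p = 0.24 in limma), and its other probes gave 0.64 and 0.55. All 3 had scaled-up spots. Gbp7 gave 1133 and 1486 units in knock-out cells, against 863 and 920 units in wild-type cells, a ratio of 0.54. Ifi47 (Irgd), a GKS-class gene on the same chromosome as Tgtp1, had ratios of 0.45 and 0.43, with a scaled-up spot. Gm12250 (Irgb10) had 0.19 and 0.69.

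Gbp11 had a mean ratio of 0.46, Gbp8 0.31, Gbp5 0.28 and the IRG gene 9930111J21Rik2 0.25. Irgq and Irgc1, IRG-related genes not known for interferon induction, had -0.14 and -0.13. The antiviral dynamin-like GTPase genes Mx2 and Mx1, which type I interferon induces, had -0.56 and -0.20. The dim genes Gbp2b and Gm4951 did not pass the filter.

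The listed interferon-gamma signalling genes hold inhibitors and Ciita besides genes upstream of these GTPases, and none was called over all genes. Of 16 genes listed, 15 were tested, with a median mean ratio of 0.11. Limma called 0, with 4 higher and 1 lower at an unadjusted p of 0.05 (3.15% and 5.97% of all genes). Socs1, Socs3 and Ciita were among the 4 higher. On both arrays, 8 were higher and 1 was lower, against 24.2% and 30% of all genes. With the genes that held scaled-up spots left out, 7 were tested and limma called Socs1 (adjusted p = 0.0327). In that setting 98 of 16057 genes were called, against 18 of 17685 with all genes.

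The receptor subunit gene Ifngr1 gave 15677 and 19776 units in knock-out cells, against 18555 and 17802 units in wild-type cells, a ratio of -0.05, and its partner Ifngr2 had 0.28 (adjusted p = 0.98 and 0.584 in limma). The kinase genes Jak1 and Jak2 had 0.11 and 0.04, and Jak1 differed in sign between the arrays.

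Irf1 had 0.72 and 0.08 on the arrays, and Irf9, a subunit of the ISRE-binding complex ISGF3, had -0.19 and 0.22. The feedback inhibitor Socs1 gave 2706 and 1409 units in knock-out cells, against 1680 and 795 units in wild-type cells. Its ratio was 0.76 ± 0.13 (SE of the fit, n = 2), with an adjusted p of 0.161 in limma. The inhibitor gene Socs3 and the MHC class II activator gene Ciita had 0.48 and 0.47 (adjusted p = 0.312 and 0.344 in limma). Irf2, which competes with Irf1 for the ISRE, had -0.51 (adjusted p = 0.348 in limma).

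The transcript of interferon-gamma itself was dim and not higher. Ifng gave 216 and 167 units in knock-out cells, against 308 and 331 units in wild-type cells, a ratio of -0.75 (adjusted p = 0.229 in limma). Of 8 interferon and inducing cytokine genes listed, 4 were tested and limma called 0, with 0 higher and 2 lower at an unadjusted p of 0.05 (3.15% and 5.97% of all genes). The second was Il18, at -0.45 (adjusted p = 0.345), and Il12a had -0.15 and 0.99 on the arrays.

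Other genes that interferon-gamma induces were mixed. Of 21 tested, 9 were higher and 2 lower on both arrays (24.2% and 30% of all genes), and the median mean ratio of the 21 was 0.13. Limma called 1 of them, against 0.102% of all genes in either direction: Serpina3g, a serine protease inhibitor of lymphocytes and myeloid cells, rose 2.68-fold (adjusted p = 0.0314, scaled-up spots). The immunoproteasome subunit gene Psmb9 and the peptide transporter gene Tap1 had 0.51 and 0.41, whereas Tap2, the partner of Tap1, had -0.39. The chemokine genes Cxcl9 and Cxcl10 differed in sign between the arrays, with 0.62 and -0.36 for Cxcl9 and -1.33 and 0.39 for Cxcl10.

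The 20 type I interferon stimulated genes tested were all lower on array 1 and split in sign on array 2. On both arrays, 0 were higher and 9 were lower (24.2% and 30% of all genes). The other 11 were lower on array 1 and higher on array 2, and 45.8% of all genes differed in sign. Limma called 0 (0.102% of all genes), with 0 higher and 2 lower at an unadjusted p of 0.05 (3.15% and 5.97% of all genes). The median ratio of the 20 genes was -0.36 on array 1 and 0.01 on array 2, where the 10 GTPases had 0.51 and 0.45. Ifit1 (-1.59 and 0.08 on the arrays), Rsad2 (-1.11 and -0.35) and Ifit3 (-1.24 and 0.10) had the lowest means. The difference between the lists was not tested.

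Genes that act with these GTPases showed no call. Of 13 genes of Atg8 conjugation, which keeps IRG and GBP proteins off the cell's own membranes, and of ubiquitin adaptors at the vacuole, all were tested. Limma called 0, with 0 at an unadjusted p of 0.05 (3.15% of all genes higher and 5.97% lower). The median mean ratio of the 13 was -0.06. Atg12 had -0.21, Gabarap 0.16 and Atg3 -0.15. Of 9 inflammasome genes, 7 were tested and limma called 0, with 2 higher and 1 lower at an unadjusted p of 0.05 (3.15% and 5.97% of all genes). Casp8 had 0.42 and Casp1 0.31 (adjusted p = 0.359 and 0.524 in limma), and the lower gene was Il18.

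**Figure D4:**
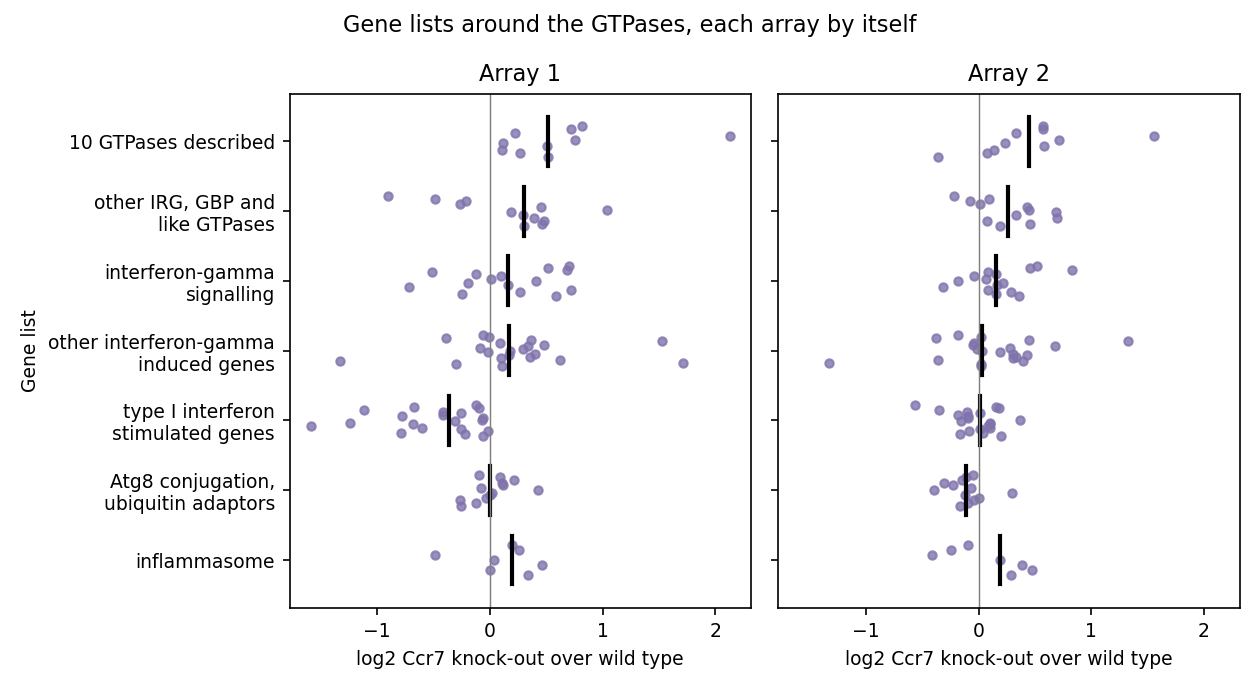
Log2 ratio of Ccr7 knock-out over wild type for each tested gene (points) of 7 gene lists, with array 1 left and array 2 right, and the median of each list as a bar; vertical position within a list only separates points. The 10 GTPases have medians of 0.51 and 0.45, and type I interferon stimulated genes have -0.36 and 0.01.

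Properties of the libraries that touch these values were as follows. Ccr7 gave 2771 and 3232 units in knock-out cells, against 5998 and 5393 units in wild-type cells, and whether its probe lies in the deleted part is not known here. Sums of marker intensities are dominated by the brightest probes, so single markers are given beside them as log2 ratios. All 8 B-cell markers were well above background in both genotypes. Their sums in knock-out against wild-type cells were 473582 against 269642 units on array 1, and 300977 against 479247 on array 2. The higher sum was in the Cy5 channel on each array. Ms4a1 and Cd79b, the largest terms, changed sign between the arrays (1.75 and -1.23 for Ms4a1, 1.45 and -1.52 for Cd79b). Of the 8 markers, 2 were higher on both arrays and 1 was lower on both (24.2% and 30% of all genes). Cd22 (mean 0.30) and Blk (0.23) were the higher genes, and Pax5 was the lower gene (mean -0.82, adjusted p = 0.141 in limma). Of 8 T-cell markers tested, 2 were higher and 4 lower on both arrays (24.2% and 30% of all genes). At an unadjusted p of 0.05 in limma, 3 were lower (Thy1 -0.78, Cd3d -0.60 and Cd8a -0.39), against 5.97% of all genes. Sums of the 8 T-cell markers, mostly Lck, were 14742 against 12970 units in knock-out against wild-type cells on array 1. On array 2 they were 10926 against 10563. Of 7 NK-cell markers 4 were tested, while Ncr1, Gzma and Eomes did not pass the filter on dim probes. Sums of the 4 in knock-out against wild-type cells were 783 against 781 units on array 1, and 624 against 660 on array 2. At an unadjusted p of 0.05 in limma, Prf1 (0.37) was higher and Klrd1 (-0.57) was lower (3.15% and 5.97% of all genes). Of 10 macrophage, granulocyte and dendritic cell markers 9 were tested. Their sums in knock-out against wild-type cells were 10394 against 5789 units on array 1, and 7527 against 10641 on array 2. The Cy5 channel again had the higher sum on each array. Lyz2, the largest term, had 1.22 and -0.60 on the arrays. Of the 9 markers, 3 were higher on both arrays and 1 was lower on both (24.2% and 30% of all genes). S100a9 (0.92 and 0.0003), Xcr1 (0.31 and 0.14) and Itgax (0.10 and 0.03) were the higher genes. Adgre1 was the lower gene (-0.29 and -1.14). The 5 plasma cell markers split, with Jchain at 1.81 (adjusted p = 0.0177 in limma) and Xbp1 at 0.70, but Sdc1 at -0.64, Prdm1 at -0.25 and Irf4 at -0.21, a median of -0.21. Their sums, mostly Xbp1, Irf4 and Jchain, were 8715 against 7395 units in knock-out against wild-type cells on array 1. On array 2 they were 14199 against 8945. Stromal and endothelial markers, mostly Pecam1, summed to 2508 against 2555 units in knock-out against wild-type cells on array 1, and 2822 against 2924 on array 2. Of the 6 tested, 2 were higher and 2 lower on both arrays (24.2% and 30% of all genes). At an unadjusted p of 0.05 in limma, Cxcl12 (0.52) and Col1a2 (0.39) were higher (3.15% of all genes) and 0 were lower (5.97%). Cxcl12 was not well above background in wild-type cells. The part of these cells in the GTPase ratios was not tested.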

How the data were processed

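Per the submitters' processing notes, spots were read with Agilent Feature Extraction 9.5.3.1, and the authors deposited its intensity values in 2 colours. The log10 ratio that program wrote, per the file headers, and the deposited log2 value table served as alternatives. That table matched this ratio, signed as knock-out over wild type, at 42512 and 42515 of 43379 spots (tolerance 0.001), and both of its columns had a median of 0. Intensities were background-corrected with normexp (offset 50) and normalised by loess (span 0.3, 4 iterations, weight 0 for 1639 control spots) with limma 3.58.1 and R 4.3.3. Levels are separate channels after Aquantile. Flagged spots were left out, and a probe was kept where 1 genotype was well above background on both arrays. Each gene took its brightest probe. Probes were named through RefSeq accession, symbol or synonym.

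Ratios were fitted with lmFit and eBayes, dye orientation in the design, with Benjamini-Hochberg adjustment over 17685 genes. The fit has 1 residual and 6.19 prior degrees of freedom, was tested on simulated data, and called 18 genes. Of spots, 68.2% and 58.4% were well above background in knock-out channels and 63.1% and 68.8% in wild-type channels, 0 were saturated, and 1958 and 1703 were scaled up from the low-gain scan. Only 2 arrays limit the precision. The genes, lists and alternatives were chosen with earlier results of these data known. Named were all 10 genes, their families, the receptor and kinase genes with Irf1, Irf9 and Socs1, and, per list, called genes or else the 3 with the largest mean ratio. Ccr7, Socs3, Ciita, Psmb9, Tap1, Tap2, Cxcl9, Cxcl10, single cell type markers and the promoter genes were named after their values were seen. Some genes that this rule takes are not reported here.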

Additional observations from a re-analysis of the deposited data

How the results depend on the processing

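The design holds 2 arrays, and signal over background limits dim probes such as that of Iigp1. Limma called 18 genes, 12 of them higher. No gene passed in 6 alternatives, with a count of 0 each: the log ratio of the scanner program, the deposited table, the mean of a gene's probes, no normalization, no subtraction of background, and a fit of separate channels that held no replicate block. The count was 4 with median centring, 9 where all channels had to be above background, 73 with an intensity trend and robust prior, and 98 where genes holding scaled-up spots were left out. In that last setting the interferon-gamma signalling list had 1 call in place of 0. No other replicate block was possible, since the array pairs the genotypes.

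The count of 2 GTPases at least 1.5-fold higher on both arrays was 4 with the scanner program's log ratio and with the deposited table, and 1 with median centring, with no normalization within the array, and without scaled-up genes (7 GTPases tested). On single arrays, where only that array had to reach the size, it was 2 to 4. The share of all genes that much higher on both arrays was 0.254% in the main setting and 0.224% without scaled-up genes. It is not given for the other settings, so nothing is read from these counts. The median ratio of 0.41 was 0.48 with the scanner program's log ratio and with the deposited value table, 0.36 with no background subtraction, 0.19 with median centring, 0.175 without scaled-up genes, and -0.028 with no normalization within the array. On single arrays it was 0.45 to 0.51. Median centring and no normalization put the median of all genes at -0.17 and -0.39. Relative to it, the GTPase median was 0.37 in both, and 9 of the 10 genes lay above it.

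Ratios that turned negative were those of Gbp2 (-0.21), Gbp3 (-0.12), Gbp4 (-0.17), Gbp9 (-0.12) and Irgm1 (-0.0014) with median centring, and with no normalization -0.43, -0.34, -0.39, -0.34 and -0.22 in the same order. Relative to all genes, Gbp2 alone stayed below (-0.03). Without replicate 1, Gbp2 was -0.36, and without replicate 2 it was 0.52. The means of Iigp1 and Gbp6 stayed positive in every alternative run. Those of Igtp, Tgtp1 and Irgm2 stayed positive in every alternative that held them, and the setting without scaled-up genes did not. On array 2 alone, Igtp, Irgm2 and Tgtp1 were -0.13, -0.17 and -0.23 with median centring, and with no normalization they were -0.61, -0.65 and -0.71 and Gbp6 was -0.22. Iigp1 ranged from 1.53 with no normalization to 2.41 with the scanner program's log ratio.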
